A study of Mus musculus with 9 samples.

Results

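The genes described here are 35 genes of the endolysosomal and cross-presentation machinery. They were set as a list of symbols with no rule on their values, but with earlier results of these data known. All 35 were found by symbol among the 51912 genes of the count table. They comprise 8 genes for cysteine cathepsins and legumain, 5 for other lysosomal enzymes, 1 for a cathepsin inhibitor, 5 for proteins of the lysosomal membrane and lumen, 3 for transcription factors of the MiT/TFE family, 4 for subunits of the phagosomal NADPH oxidase, 6 for Rab GTPases and SNAREs, and 3 for an ER channel and trimming peptidases. Their RNA was measured by bulk RNA-seq in 9 samples of pre-cDCs, the committed precursors of conventional dendritic cells (cDCs), with 3 samples of each genotype, WT and DNGR-1 KO, from BM. Spleen contributed the other 3 samples, of which 1 was WT and 2 were DNGR-1 KO. All cells came from mixed BM chimeras, for which lethally irradiated BL/6 CD45.1/2 mice had received an equal mix of BM from BL/6 CD45.1 mice (WT) and Clec9aCre/Cre CD45.2 mice (DNGR-1 KO), so the WT and KO cells had matured in shared, irradiated hosts without further treatment. The knockout line carries Cre in both copies of Clec9a, the gene for DNGR-1, and was made from BL/N embryonic stem cells and then backcrossed, so the genotypes also differ in their CD45 allele and in any strain segments that remain. Cells of a pair of mice were pooled for each sample. The number of mice given for the experiment allows for only 3 such pools, so samples of different groups must share mice, and the sample numbers 1 to 3 may mark the pools although no label says so. Calls among the 35 genes that change when the sample number enters the fit as a block are given both ways. Those of other pathway genes are given without the block.

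Cathepsins are proteases of acidic endosomes and lysosomes, where they degrade ingested protein, process antigen for MHC class II molecules and trim the invariant chain. Dendritic cells are known for keeping lysosomal proteolysis low and phagosomal pH high, the latter through the NADPH oxidase, which spares antigen for cross-presentation on MHC class I molecules. Cross-presentation also draws on ER components such as SEC61, vesicle fusion that uses SEC22B, and the trimming peptidases ERAP1 and IRAP (the product of Lnpep). DNGR-1 is a receptor for F-actin of dead cells that promotes cross-presentation of their antigens, and the comparisons ask how this machinery stood in pre-cDCs with and without it, in BM and in spleen.

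Members of the MiT/TFE family, such as TFEB, bind CACGTG motifs upstream of lysosomal genes. RefSeq promoters (GRCm38.p6, 250 bases before to 50 after each start) were at hand for 30 of the 35 genes, with 41 promoters in all. CACGTG, a palindrome that reads alike on both strands, was present in 19.5% of these 41 promoters, from 8 genes, and in 7.15% of all 32851 promoters. Its longer form TCACGTGA was present in 7.32% and 0.974%, respectively. TCATGTG, searched on both strands, was present in 7.32% of the members' promoters and 3.77% of all. GAGGAAGT, a motif bound by the myeloid factor PU.1, was also present in 7.32%, against 3.2% of all. Lamp1, which encodes an abundant lysosomal membrane glycoprotein, had 4 copies of CACGTG in its last 72 bases before the start, and its window is shown whole because no other member's promoter held more than 2. The windows of Ctsa, Ctsd and Ifi30 are shown because they hold the longer form, and those of Ctsc and Ctss because they hold GAGGAAGT on the other strand and both genes passed the test between tissues. Capitals mark CACGTG in the first 4 windows and the reverse complement of GAGGAAGT in the last ones, each read 5′ to 3′ on the gene's strand.
Lamp1 (chr8:13159089-13159160, plus strand): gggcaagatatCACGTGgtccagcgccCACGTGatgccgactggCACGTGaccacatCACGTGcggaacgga
Ctsa (chr2:164833751-164833776, plus strand): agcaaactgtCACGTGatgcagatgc
Ctsd (chr7:142387910-142387935, minus strand): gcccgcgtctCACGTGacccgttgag
Ifi30 (chr8:70766844-70766869, minus strand): ccaaaaacttCACGTGaccagacatg
Ctsc (chr7:88277924-88277951, plus strand): tcactaactaACTTCCTCaggccacctc
Ctss (chr3:95526774-95526801, plus strand): atgaaagttcACTTCCTCattgtggatg
The marked motifs of Ctsa, Ctsd, Ifi30, Ctsc and Ctss begin at positions -12, -98, -196, -151 and -2 from a RefSeq start of the gene, and the GENCODE gene of Ctsd and that of Ctsa reach past their windows. A match describes these letters and shows neither binding nor regulation, and the binding of these factors was not measured.

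The 9 libraries held 17103806 to 23722298 counts each. The targeted gene had 905, 1574 and 1766 counts of Clec9a in WT BM, 2459 in WT spleen, 1 in each DNGR-1 KO BM sample and 0 in both DNGR-1 KO spleen samples. All 10 pre-cDC and cDC markers examined, including Flt3 and Zbtb46, were above 3 counts in every sample. Within BM, the samples numbered 1 stood apart in both genotypes, with 429 CPM of H2-Ab1 in WT and 339 in DNGR-1 KO against 1239 to 2361 CPM in the other BM samples, and with the highest summed level of 8 neutrophil and granulocyte precursor markers. The spleen libraries held RNA of marker genes of other cell types, although the gate excluded CD3+, NK1.1+ and Ter119+ cells. The summed level of 8 T cell markers was 833 to 3132 CPM in spleen and 3.99 to 13.1 CPM in BM, that of 7 NK cell markers 776 to 1917 and 63.3 to 151 CPM, and that of 4 erythroid markers 5025 to 29996 and 82.1 to 533 CPM. Not every marker followed its sum. Of the 8 T cell markers, 7 were higher in every spleen sample than in every BM sample. Cd4, the other one, was at 0 to 1.11 CPM in spleen. The same held for 5 of 7 NK cell markers, and Klrk1 gave 511 of the 776 CPM in WT spleen. Of the 4 erythroid markers, 2 were higher and 1 was lower in every spleen sample. The 8 neutrophil markers summed to 0.333 to 4.92 CPM in spleen and 973 to 2850 CPM in BM, and 7 of them were lower in every spleen sample. The sums for macrophages and monocytes (10 markers) and pDCs (4) overlapped between tissues. Even so, 4 of the 10 macrophage and monocyte markers (Adgre1, C1qa, C1qb and Vcam1) were higher in every spleen sample, and 0 were lower. WT spleen also stood apart from both DNGR-1 KO spleen samples: 509 of 13218 genes had at most 3 counts there and at least 100 in each of them, of which 0 were among the 35 genes. In bulk samples, fewer cells of a type and less RNA per cell cannot be told apart.

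The machinery was unevenly expressed. Scaled to exon length, the highest mean level in BM was that of Cst3, encoding cystatin C, a secreted inhibitor of cysteine cathepsins, at 3591 CPM per kb (range of 6 samples, 2223 to 5464). Ifi30 (GILT, the lysosomal thiol reductase), Ctss (cathepsin S, which trims the invariant chain), Laptm5 (a lysosomal membrane protein of leukocytes) and Ctsz followed at 690, 621, 609 and 522 CPM per kb, and their ranges over the 6 samples overlapped. At the other end, mean levels per kb in BM were 4.88 for Ctsl, 3.73 for Cd63, 3.16 for Tfeb, 1.01 for Tfec, 0.886 for Lnpep and 0.586 for Mitf. Rab34 and Ctsk, the cathepsin of osteoclasts, were barely detected. Ctsk had 1 count in all 9 libraries together, which at this depth does not separate low expression from none. Rab34 had 27 counts over the 6 BM libraries, 20 of them in DNGR-1 KO BM 2, and 0 in spleen. The gap from Ctss and Ctsz down to Ctsl exceeded the spread between samples. The highest value of Ctsl in BM was 6.29 CPM per kb, and the lowest values of Ctss and Ctsz were 480 and 437 CPM per kb. The scaling used all annotated exon bases of a gene, 6489 for Ctsl and 1358 for Ctss. Without scaling, the BM means were 31.6 CPM for Ctsl, 844 CPM for Ctss and 752 CPM for Ctsz. Gm47123, on the other strand, covers 26.8% of the exon bases of Ctsl.

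**Figure D1:**
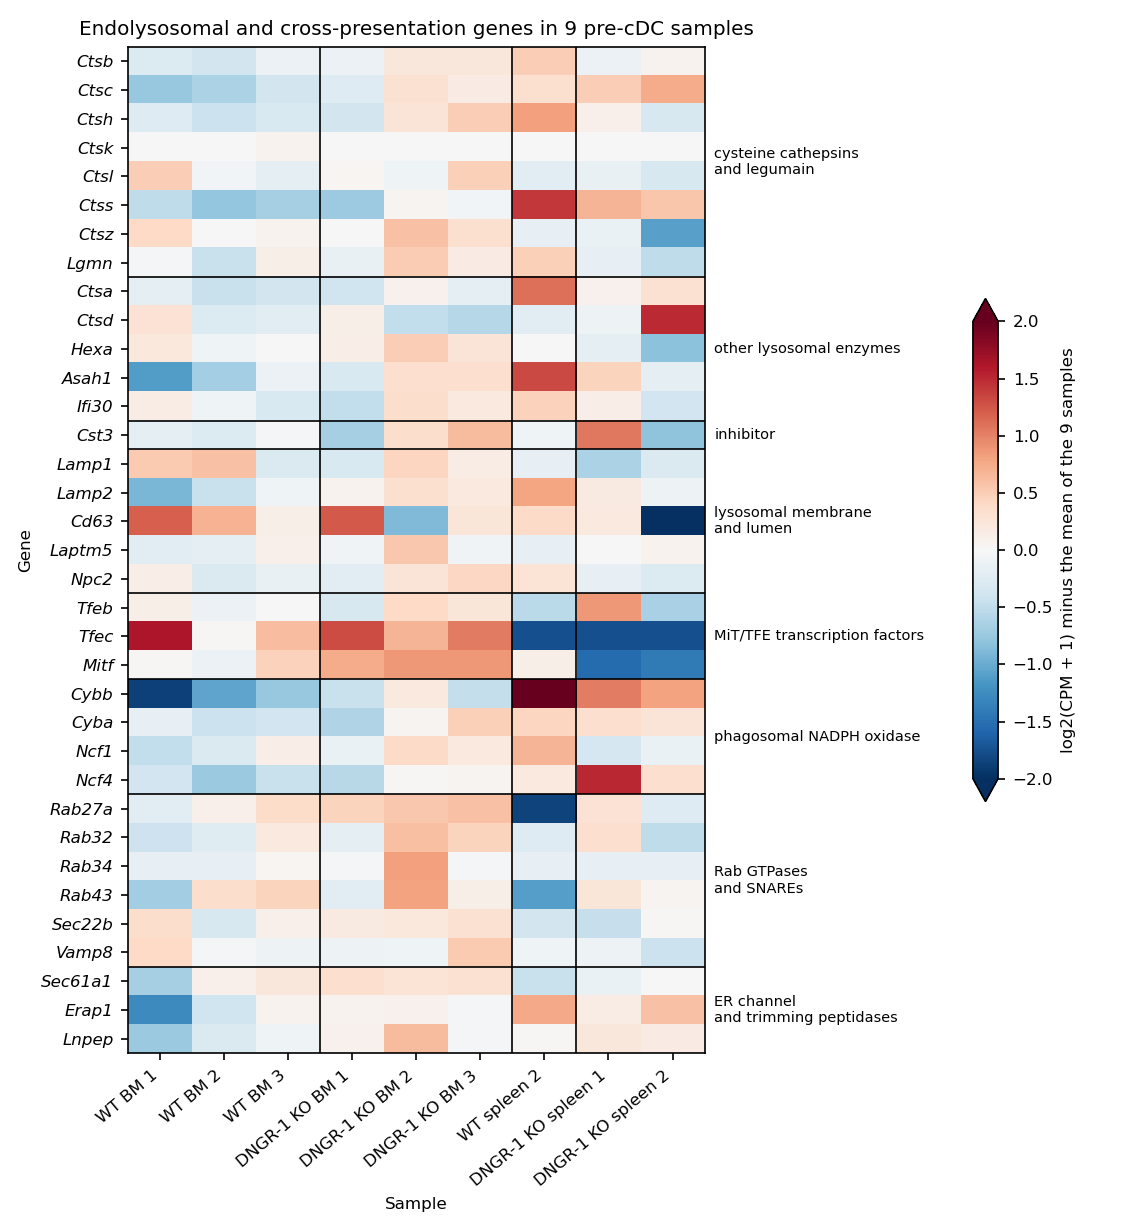
Heat map of the 35 genes (rows, by role) in the 9 samples (columns), as log2(CPM + 1) minus the mean of the gene's 9 samples, with the colour scale limited to 2 in each direction. Most rows are redder in DNGR-1 KO BM 2 and 3 than in WT BM 2 and 3, Cybb and Ctss are reddest in WT spleen, and Tfec is blue in all 3 spleen samples.

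In BM, loss of DNGR-1 went with no called change in any of these genes. Of the 33 members tested, 0 passed an adjusted p of 0.05 in edgeR's quasi-likelihood test, where 4 of all 13016 genes (0.0307%) passed. The lowest adjusted p among the members was 0.861. At an unadjusted p under 0.05 there were 4 members (Ctsc, Asah1, Lamp2 and Cybb) and 498 of all genes, and both DESeq2 and limma-voom also called 0 members. The estimates nevertheless lay mostly on one side: 30 of 33 log2 fold changes were above 0, against 49.6% of all genes, with a median of 0.35 for the members and -0.0045 for all genes. Those below 0 were Ctsd at -0.25 ± 0.27 (SE), Lamp1 at -0.22 ± 0.31 and Cd63 at -0.33 ± 0.53, all smaller than their errors. In 7 members (21.2%) every DNGR-1 KO sample lay above every WT sample, against 4.96% of all genes, and in 0 members every KO sample lay below, against 4.59%. The 33 genes are not independent replicates, and the list was chosen with earlier results of these data known. These counts therefore describe the list and carry no test.

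Among the proteases, Ctsc, encoding cathepsin C, the dipeptidyl peptidase that activates granule serine proteases, was one of these 7. Ctsc (chr7:88278085-88310888) was measured at 86.3, 93.8 and 113 CPM in WT BM and at 122, 181 and 164 CPM in DNGR-1 KO BM, a log2 fold change of 0.66 ± 0.24 (SE). The groups did not overlap, but the gap between the highest WT sample and the lowest KO sample was small beside the spread within the KO group. The other cysteine proteases tested had log2 fold changes of 0.05 (Ctsl) to 0.49 (Ctsh), with overlapping groups. Of the further enzymes, Asah1, encoding acid ceramidase, had the highest estimate, 0.73 ± 0.30, with 151 to 303 CPM in WT and 266 to 418 CPM in KO. Ctsa, Hexa and Ifi30 had estimates of 0.16, 0.24 and 0.13. The inhibitor gene Cst3 had 3666 to 4329 CPM in WT and 2814 to 6917 CPM in KO, so that the KO samples lay on both sides of the WT range.

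Lamp2 (chrX:38401357-38456454), whose product lines lysosomes and takes part in chaperone-mediated autophagy, was at 119, 165 and 212 CPM in WT BM and at 236, 280 and 257 CPM in KO BM (log2 fold change 0.63 ± 0.25). The KO samples were close together, and the WT samples spread more. Its relative Lamp1 had no such pattern, with 47.2 to 87.2 CPM in WT and 46.4 to 77.9 CPM in KO. Laptm5 and Npc2, which encodes the cholesterol carrier of the lysosomal lumen, had estimates of 0.25 and 0.26 with overlapping groups. Of the transcription factors, Mitf was at 2.27, 1.97 and 3.43 CPM in WT and at 4.39, 4.86 and 4.86 CPM in KO, which corresponds to 38 to 67 and 97 to 99 counts (log2 fold change 0.87 ± 0.45). Tfeb and Tfec overlapped between genotypes, with log2 fold changes of 0.13 and 0.14.

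The catalytic subunit of the phagosomal oxidase had the highest estimate of all members. Cybb (chrX:9435252-9487771), encoding gp91phox, was at 68.3, 122 and 149 CPM in WT BM and at 185, 288 and 180 CPM in KO BM, a log2 fold change of 0.94 ± 0.32 with an unadjusted p of 0.0147 in edgeR. Every KO sample was above every WT sample, and WT BM 1 was the lowest. Cyba, the partner of Cybb in the membrane, and the cytosolic subunits Ncf1 and Ncf4 had estimates of 0.36, 0.35 and 0.38 with overlapping groups.

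Of the trafficking genes, Rab27a, which controls lysosome-related organelles and oxidase recruitment to phagosomes, was at 64.6, 80.8 and 96.7 CPM in WT BM and at 102, 109 and 113 CPM in KO BM. Sec61a1, the channel subunit of the ER translocon, was at 178, 305 and 333 CPM in WT and at 357, 343 and 349 CPM in KO. Lnpep was at 7.17, 10.2 and 11.8 CPM in WT and at 13.4, 20.2 and 12.4 CPM in KO. In each of these genes WT BM 1 was the lowest sample, and the distance between the closest WT and KO samples was below the range of the WT group. Sec22b, Vamp8, Rab32, Rab43 and Erap1 overlapped between genotypes, with log2 fold changes of 0.03 (Vamp8) to 0.47 (Erap1). An antisense gene, Gm44170, covers 8.16% of the exon bases of Sec61a1, and reads of the 2 could have been divided by the counting.

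**Figure D2:**
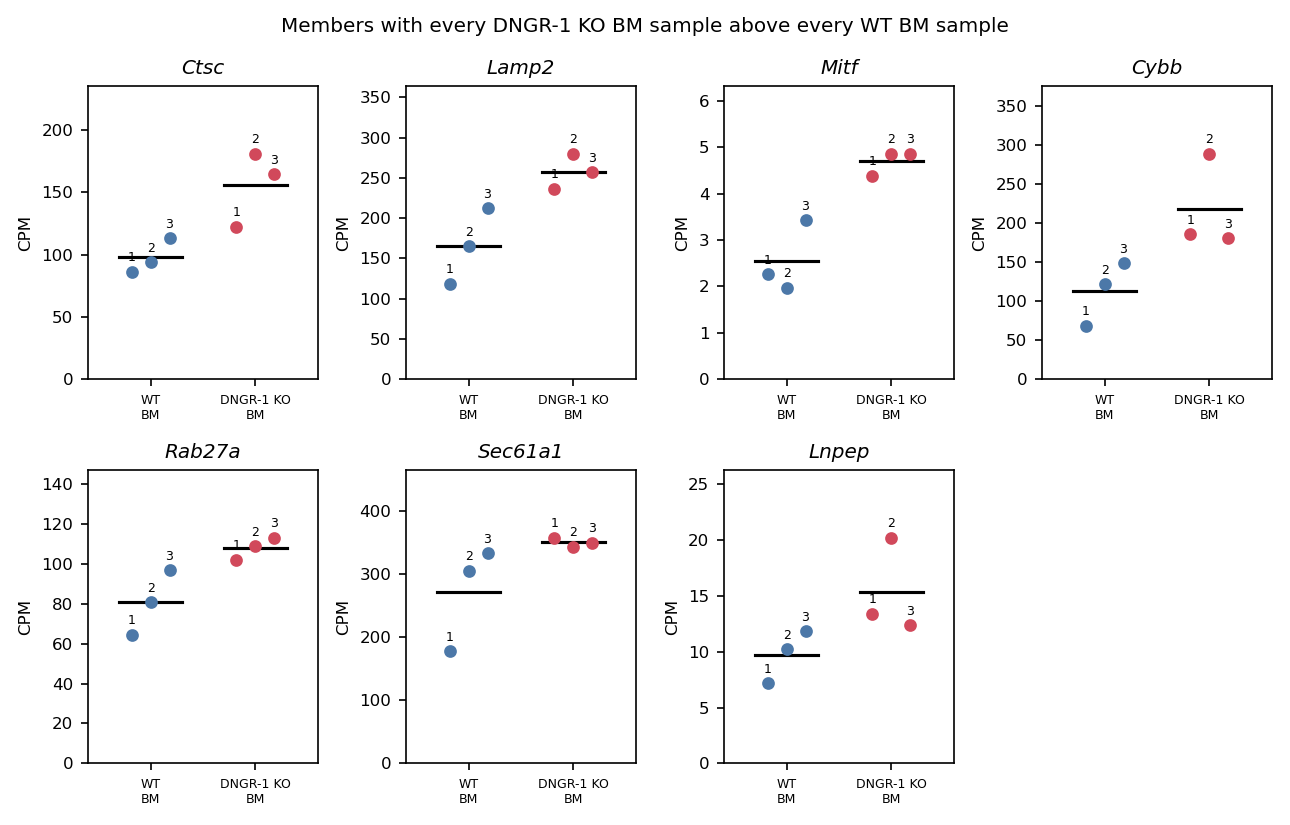
CPM (linear axes from 0) of the 7 members in which every DNGR-1 KO BM sample (red) lay above every WT BM sample (blue), with the sample number beside each point and a line at the mean of 3 samples. WT sample 1 is the lowest for 6 of the 7 genes, the exception being Mitf, where sample 2 is lowest at 1.97 CPM.

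The samples numbered 1 bore on these counts. Without them, in a comparison chosen after the data had been seen, both remaining KO samples lay above both WT samples in 25 of 33 members, against 19.4% of all genes. The KO samples lay below in 1 member, Ctsd, against 21.6% of all genes. In the same 4 samples the median log2 fold change was 0.46 for the members and -0.0076 for all genes. There, 0 members passed the adjustment, and 8 of 13090 genes did. H2-Ab1 was higher in both of these KO samples than in both WT samples, at 2211 and 2361 against 1239 and 1738 CPM. The part of differences in maturation state in the members' values was not tested.

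**Figure D3:**
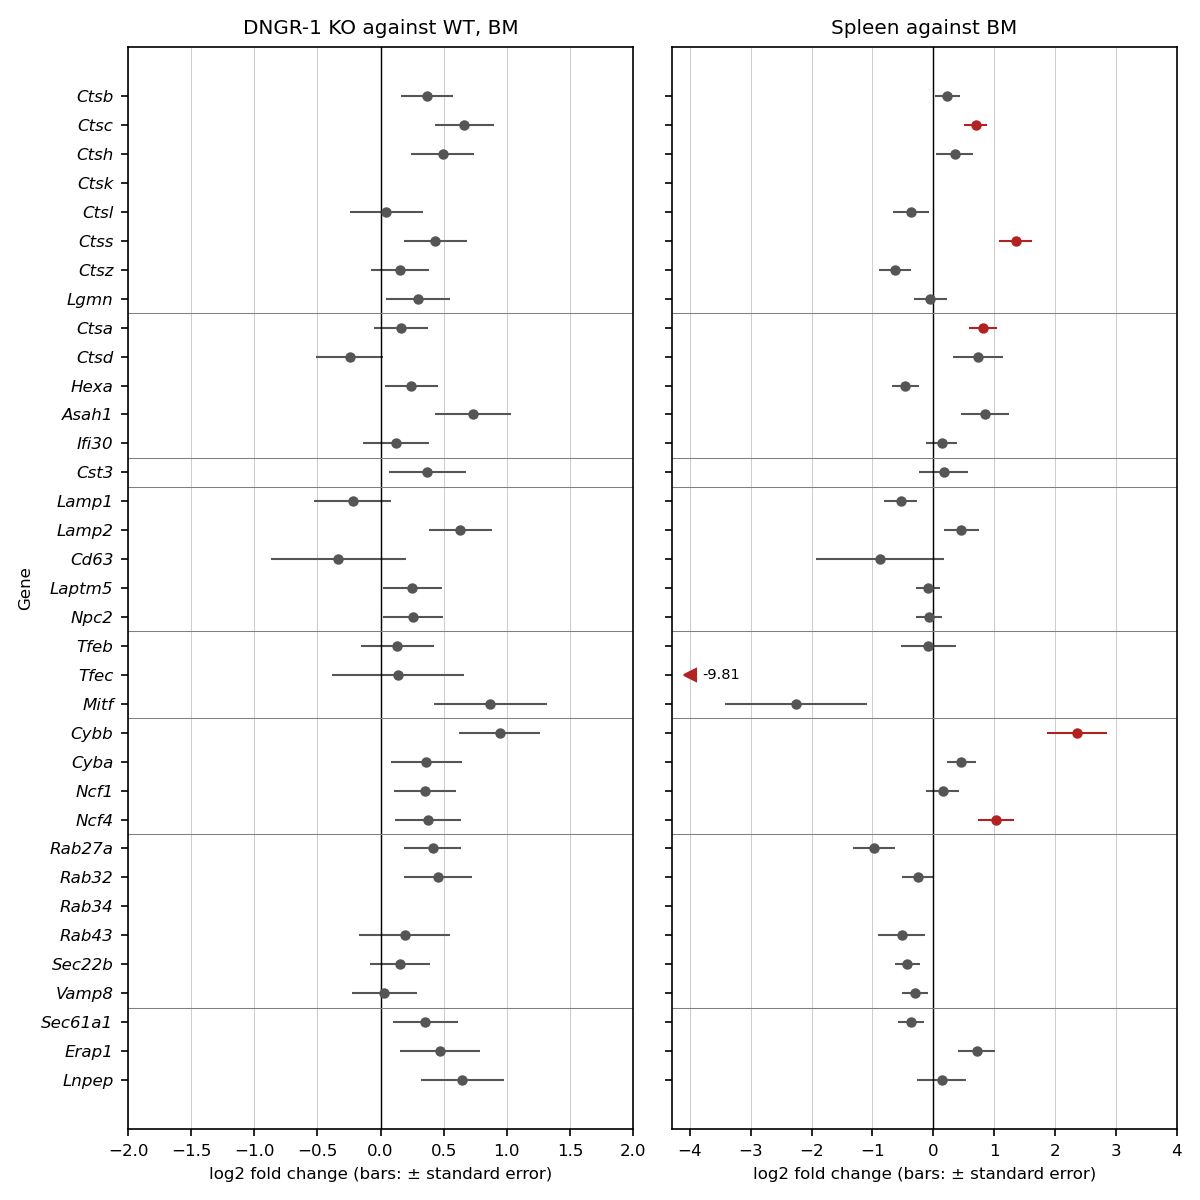
Log2 fold changes (points) with standard errors (bars) of the members by role, for DNGR-1 KO against WT in BM (left) and spleen against BM (right), with members past an adjusted p of 0.05 in red. Nearly all points lie right of 0 in BM, and in the tissue comparison 5 red points lie right of 0 and Tfec, drawn at the left edge, lies at -9.81. Ctsk and Rab34 were not tested.

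Between tissues, 6 of 33 members passed the threshold, a share of 18.2% against 19.5% of 13468 genes, so that the list moved about as often as genes in general. With the sample number as a block, 2 members passed, Ctss and Tfec, and 9.25% of all genes. Of the 6 without the block, 5 rose in spleen (7.28% of all genes did) and 1 fell (12.3% of all). Those that rose were the cathepsin genes Ctss, Ctsc and Ctsa and the oxidase genes Cybb and Ncf4, and the one that fell was Tfec. The median log2 fold change of the members was -0.05, and -0.18 over all genes. In 6 members every spleen sample lay above every BM sample (8.95% of all genes), namely the 5 that rose and Erap1, and in 2 members, Ctsz and Tfec, every spleen sample lay below (17.7% of all).

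Ctss (chr3:95526786-95556403) was at 789, 652 and 707 CPM in WT BM, 671, 1165 and 1080 CPM in DNGR-1 KO BM, 2968 CPM in WT spleen, and 1795 and 1647 CPM in DNGR-1 KO spleen. Every spleen sample lay above every BM sample, and WT spleen was the highest sample. Spleen exceeded BM by a log2 fold change of 1.36 ± 0.27 (SE), a 2.56-fold difference (adjusted p = 0.00786 in edgeR, and 0.0482 with the block). Ctsc, with the BM values given above, was at 182 CPM in WT spleen and at 206 and 246 CPM in DNGR-1 KO spleen (log2 fold change 0.70 ± 0.19, adjusted p = 0.0295 in edgeR, and 0.0601 with the block). Its lowest spleen sample barely exceeded its highest BM sample.

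Ctsa (chr2:164832873-164841032), encoding cathepsin A, a carboxypeptidase that also protects lysosomal galactosidase and neuraminidase, was at 500, 418 and 443 CPM in WT BM, 431, 605 and 498 CPM in KO BM, 1217 CPM in WT spleen, and 607 and 707 CPM in KO spleen. WT spleen lay far above all other samples, and DNGR-1 KO spleen 1 was level with DNGR-1 KO BM 2. The log2 fold change was 0.82 ± 0.23 (adjusted p = 0.0341 in edgeR, and 0.144 with the block). Pltp and Neurl2, on the other strand, cover 10.5% and 6.87% of its exon bases, and the strand setting of the counting is not stated.

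Cybb had the highest fold among the members that rose. It was at 1521 CPM in WT spleen and at 514 and 443 CPM in DNGR-1 KO spleen, against at most 288 CPM in BM. Every spleen sample thus lay above every BM sample, and WT spleen was the highest by a wide margin. The log2 fold change was 2.35 ± 0.49 (adjusted p = 0.00992 in edgeR, and 0.0501 with the block). Ncf4 (chr15:78244801-78262580), encoding p40phox, the subunit that binds phagosomal phosphoinositide, was at 45.0, 34.6 and 43.1 CPM in WT BM, 39.8, 59.5 and 61.0 CPM in KO BM, 67.4 CPM in WT spleen, and 169 and 74.3 CPM in KO spleen. DNGR-1 KO spleen 1 was by far the highest sample, and the other spleen samples lay just above the BM range, with a log2 fold change of 1.03 ± 0.29 (adjusted p = 0.0369 in edgeR, and 0.0851 with the block). The remaining subunits did not pass, with log2 fold changes of 0.46 for Cyba and 0.15 for Ncf1.

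Tfec (chr6:16833373-16898441), a MiT/TFE factor of the macrophage and myeloid lineage, had 158, 47 and 82 counts in WT BM, 164, 90 and 119 counts in KO BM and 0 counts in all 3 spleen samples. These BM counts correspond to 9.43, 2.44 and 4.20 CPM in WT and to 7.42, 4.42 and 5.96 CPM in KO. Against a floor of 3 counts in each spleen library, 0.178 CPM in the one with the highest floor, the BM mean of 5.64 CPM put Tfec at least 31.7-fold lower in spleen (adjusted p = 0.00252 in edgeR, and 0.0234 with the block). Every BM sample was above every spleen sample, and this call held under each alternative tried. Mitf had a log2 fold change of -2.26 ± 1.16, which did not pass, and Tfeb -0.08 ± 0.46.

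The 5 calls higher in spleen depended on single samples. Without WT spleen 0 of the 5 passed, the calls being Tfec and Mitf. The log2 fold changes were then lower for Ctss (0.84), Ctsc (0.55), Ctsa (0.38) and Cybb (1.15), and higher for Ncf4 (1.20, adjusted p = 0.0599 in edgeR). The estimate of Ncf4 fell to 0.62 without DNGR-1 KO spleen 1. With the DNGR-1 KO samples alone the calls were again Tfec and Mitf. Ctsc also missed the threshold without WT BM 2, KO BM 1 or KO spleen 2, Ctsa without any 1 BM sample other than KO BM 2, and Ncf4 without any 1 BM sample other than WT BM 1 or without KO spleen 1. Spleen was digested with collagenase and BM was flushed, so the preparation and the tissue cannot be told apart. The T cell, NK cell, erythroid and macrophage markers that were high in spleen moved with these results, as did the neutrophil markers that were high in BM. The part of such cells in the results was not tested.

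**Figure D4:**
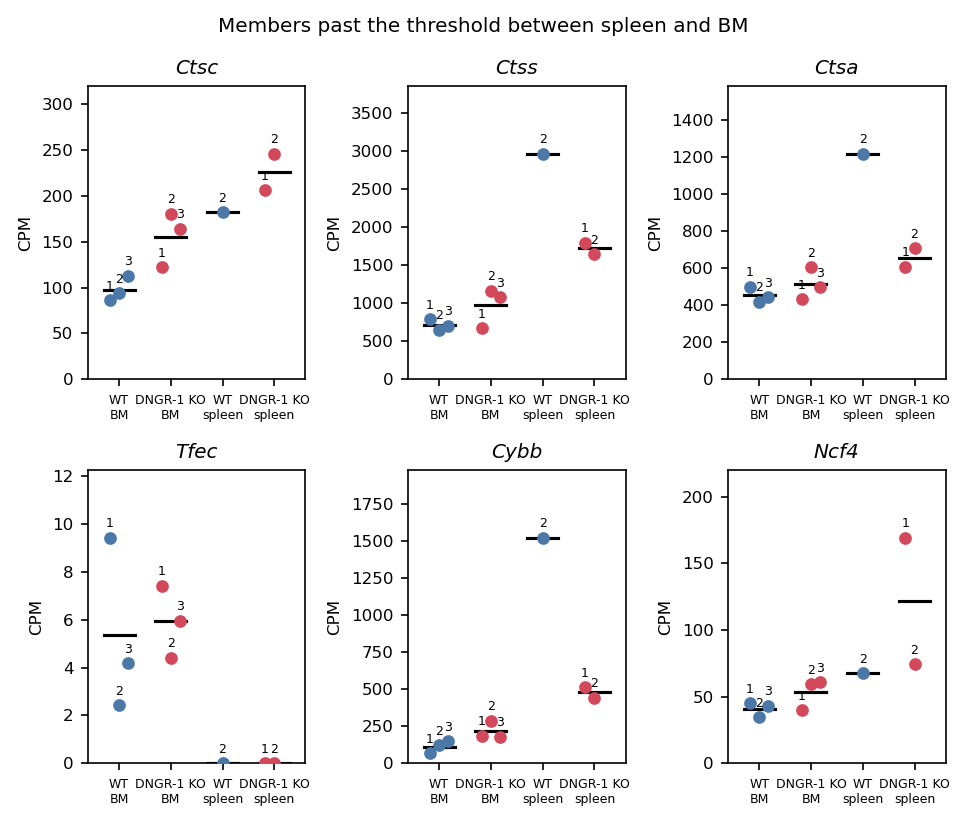
CPM (linear axes from 0) of the 6 members past the threshold between tissues, by group, with WT in blue, DNGR-1 KO in red, the sample number beside each point and a line at the group mean. Ctss, Ctsa and Cybb are highest in the single WT spleen sample, Ncf4 in DNGR-1 KO spleen 1, and Tfec is at 0 in spleen.

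Among the members not called between tissues, Rab27a came nearest, at a log2 fold change of -0.97 ± 0.34 (adjusted p = 0.0733, edgeR). All 5 tested Rab GTPase and SNARE genes had estimates below 0, from -0.97 to -0.25, and so did 7735 of 13468 genes. Ctsz had -0.63 ± 0.26, and although each spleen sample (297 to 579 CPM) lay below each BM sample (629 to 955 CPM) its adjusted p was 0.119 in edgeR. Erap1, with 105 to 161 CPM in spleen and 38.5 to 100.2 CPM in BM, had 0.71 ± 0.30 (adjusted p = 0.126, edgeR), and Cast on the other strand covers 11.5% of its exon bases. Estimates for Ctsd and Asah1 of 0.74 ± 0.41 and 0.86 ± 0.40 came with wide spread in spleen, where Ctsd ranged from 247 to 822 CPM and Asah1 from 288 to 821 CPM. Gm49369 shares 34.4% of the exon bases of Ctsd on its strand, so the counts of Ctsd are uncertain. Cst3, Ifi30, Laptm5, Npc2 and Lgmn had log2 fold changes from -0.09 to 0.17. The remaining 9 members, Ctsb, Ctsh, Ctsl, Hexa, Lamp1, Lamp2, Cd63, Sec61a1 and Lnpep, had estimates from -0.88 (Cd63) to 0.46 (Lamp2), with an adjusted p of at least 0.181 in edgeR and with spleen and BM samples that overlapped.

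In spleen, with 1 WT sample, genotypes were compared by size only, and no test was made. Of 32 members with sufficient counts, both DNGR-1 KO samples were at least 2-fold above WT in 2 members (17.7% of 13218 genes) and at least 2-fold below in 2 members (9.24%). Each count was 6.25% of the members. With so few genes and 1 WT library, no difference from the share of all genes is drawn. Those above were Rab27a, at 20.1 CPM in WT and 91.5 and 62.5 CPM in KO, and Rab43, a GTPase linked to cross-presentation by cDC1s, at 26.7 CPM in WT and 68.8 and 60.6 CPM in KO. Gm45140 shares 75.4% of the exon bases of Rab43 on the same strand, so its counts are uncertain. Those below were Cybb, with the values given above and ratios to WT of 0.338 and 0.291, and Mitf, with 42 counts in WT and 2 and 5 counts in KO. The ratios of Mitf to WT were 0.0446 (95% exact interval 0.00523 to 0.172) and 0.0848 (0.0262 to 0.214), intervals that cover counting error only.

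Without regard to size, both KO spleen samples lay below WT in 18 of 32 members (30.7% of all genes) and above it in 8 (34.9%). The 18 included Ctss, Ctsb, Ctsh, Ctsa, Asah1, Lamp2, Ncf1 and Cybb, and the 8 were Ctsc, Ctsd, Laptm5, Ncf4, Rab27a, Rab43, Sec61a1 and Lnpep. All of these shares rest on a single WT library. For some genes the KO spleen samples differed widely from each other, also where both lay on the same side of WT. Cd63, a tetraspanin of late endosomes, had 197 counts in WT, 183 in DNGR-1 KO spleen 1 and 2 in DNGR-1 KO spleen 2, whose ratio to WT was 0.00723 (95% exact interval 0.000869 to 0.0265). Cst3 was at 4205 CPM in WT and at 9221 and 2543 CPM in KO, and Ctsd at 247 CPM in WT and at 270 and 822 CPM in KO. H2-Ab1 and Cd74 were likewise higher in DNGR-1 KO spleen 1 than in the other spleen samples, and the summed T cell markers were highest in DNGR-1 KO spleen 2. Their part in these values was not tested.

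**Figure D5:**
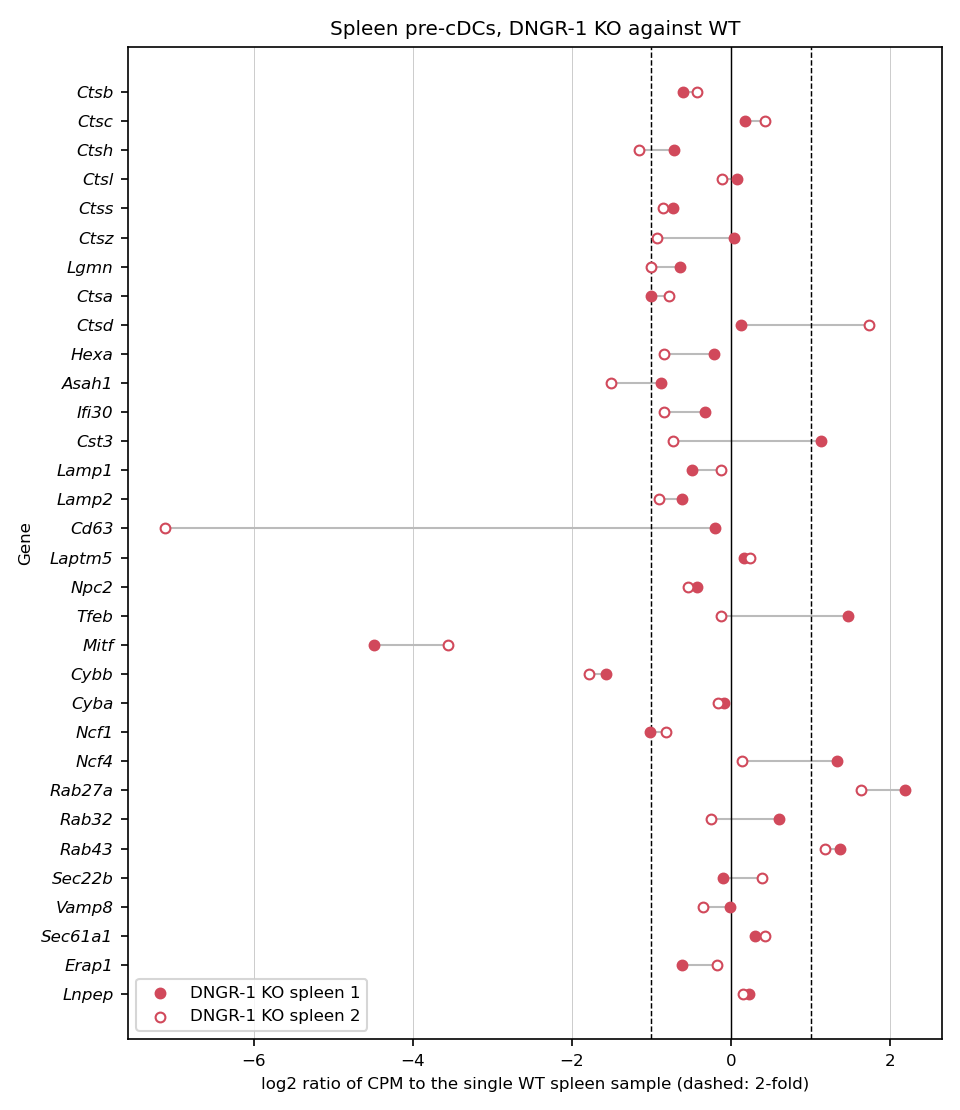
Log2 ratio of CPM in each DNGR-1 KO spleen sample (filled, sample 1, and open, sample 2) to the single WT spleen sample for the 32 members with sufficient counts, with dashed lines at 2-fold. Rab27a and Rab43 lie right of the dashed lines in both samples, Cybb and Mitf lie left of them in both, and Cd63 lies far left in sample 2 only.

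Other genes of the pathway, listed by function, were read in the same fits, without the sample number as a block. In BM, 0 genes of any list passed between genotypes in edgeR, with 0 of 15 tested V-ATPase subunits, 0 of 34 further lysosomal hydrolases and activators, 0 of 28 lysosomal membrane and sorting genes, 0 of 14 genes of TFEB/TFE3 control, 0 of 5 further oxidase genes, 0 of 21 ER-to-phagosome and retrotranslocation genes, 0 of 8 proteasome subunits and activators, and 0 of 6 further cathepsin inhibitors. At an unadjusted p under 0.05 there were 2 hydrolases, 1 membrane and sorting gene and 1 oxidase gene (498 of all 13016 genes). The medians of these lists in BM ranged from 0.04 (ER-to-phagosome) to 0.30 (oxidase), below the 0.35 of the members.

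Between tissues, the share of each list that passed was 20.6% for the hydrolases, 7.14% for the membrane and sorting genes, 13.3% for the V-ATPase, 40% for the oxidase genes, 9.52% for the ER-to-phagosome genes, 25% for the proteasome genes and 33.3% for the inhibitors, against the 19.5% of all genes. The hydrolases, close to that share, had 6 genes that rose and 1 that fell in spleen. Acp5, encoding tartrate-resistant acid phosphatase, rose by 3.29 ± 0.26 on the log2 scale, with a mean of 17.9 ± 7.09 CPM (SD) over the 6 BM samples and 181 ± 31.9 CPM over the 3 spleen samples. Lipa, the lysosomal acid lipase, rose by 1.37 ± 0.23, and Smpd1, the acid sphingomyelinase, fell by 0.72 ± 0.18. The membrane and sorting genes had 2 that rose. Slc11a1, a phagosomal metal transporter of macrophages, averaged 1.26 ± 1.25 CPM (SD) in BM and 69.9 ± 53.2 CPM in spleen, and Cln3 rose by 0.90 ± 0.19. Of the further oxidase genes Hvcn1, the proton channel that sustains the oxidase, rose by 1.45 ± 0.24 and Rap1a by 0.97 ± 0.24. The V-ATPase list, whose pump acidifies the lysosome, split, with Atp6v1d up by 0.96 ± 0.25 and Atp6v0c down by 0.69 ± 0.16. The same was seen in the proteasome list, where the immunoproteasome subunit gene Psmb10 rose by 0.95 ± 0.23 and Psmb5, which encodes a catalytic subunit of the constitutive proteasome, fell by 0.95 ± 0.24. In the ER-to-phagosome list Snap23 rose by 0.85 ± 0.22 and the chaperone gene Hsp90aa1 fell by 0.96 ± 0.23. Among the inhibitors Serpina3g rose by 2.55 ± 0.43, and Serpinb1a fell, with 143 ± 27.2 CPM (SD) in BM and 62.5 ± 22.9 CPM in spleen. The 14 genes of TFEB/TFE3 control had 0 calls in edgeR, with 2 genes at an unadjusted p under 0.05 (4517 of all 13468 genes). With the sample number as a block, 9.25% of all genes passed between tissues. The lists were not read with that block or without the single WT spleen sample. Of the 10 macrophage and monocyte markers, 4 (Adgre1, C1qa, C1qb and Vcam1) were higher in every spleen sample than in every BM sample, the other 6 overlapped, and the part of such cells in these values was not tested.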

How the data were processed

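Total RNA of sorted pre-cDCs was sequenced after ribosomal RNA depletion. The authors deposited expected counts per gene, not normalized. The submitters' processing notes list Trimmomatic 0.36, STAR 2.5.2, RSEM 1.3.0 and GRCm38, and DESeq2 1.18.1 and R 3.4.3 for a transformed table that was not used here. The annotation release and strand setting are not given in the sources used here. Samples were grouped by genotype and tissue in the labels, which give CD45.1 and CD45.2 for WT in different fields. CD45.1 was used because the methods give it.

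The design had been written for counts, and expected counts were rounded to whole numbers. Symbols, exon lengths and coordinates came from GENCODE M21 (GRCm38), matching 51719 of 51912 genes. Tests used edgeR 4.0.16 in R 4.3.3 (TMM, filterByExpr, quasi-likelihood, Benjamini-Hochberg over all genes tested), over the 6 BM samples for genotype and over all 9 with genotype as covariate for tissue. The sample numbers of BM groups were checked as pairs by the correlation of deviations from group means (0.103, 0.0989 and -0.0815), and because the groups share mice the number as a block was also fitted. P-values measure the spread between these samples, which may be technical. CPM used TMM factors, and 3 counts equal 0.126 to 0.175 CPM of unadjusted depth. DESeq2 1.42.0 and limma 3.58.1 were alternatives, with other filters, scalings, designs and each sample left out. No pair of replicates agreed within sampling noise (chi-square per gene at least 30.8). Scripts were tested on simulated data. All members are named or counted, with values in every sample for those past a test or a stated rule, and up to 2 genes per direction in each pathway list. Members and lists were chosen with earlier results of these data known.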

Additional observations from a re-analysis of the deposited data

Results flagged for a closer look

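For 3 members every DNGR-1 KO BM sample lay above every WT BM sample, while both DNGR-1 KO spleen samples lay below the single WT spleen sample. The log2 ratio of the DNGR-1 KO mean to WT in spleen was -0.75 for Lamp2, -3.95 for Mitf and -1.67 for Cybb. The log2 fold changes in BM were 0.63 ± 0.25 (SE), 0.87 ± 0.45 and 0.94 ± 0.32, respectively. In the other 4 members without overlap in BM (Ctsc, Rab27a, Sec61a1 and Lnpep) both DNGR-1 KO spleen samples lay above WT spleen. Both lay below it in 30.7% of all genes and in 18 of the 32 members with sufficient counts (56.2%). The difference between the tissues was not tested. Spleen has 1 WT sample, and Mitf had only 2 and 5 counts in DNGR-1 KO spleen.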

How the results depend on the processing

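The absence of member calls between genotypes in BM held under all 15 alternatives, with 26 to 31 members above 0. Calls over all genes in BM moved from 4 to 11 with DESeq2, 10 without a filter and 8 with the samples numbered 2 and 3 only, and ranged from 2 to 15 with 1 sample left out. With the samples numbered 2 and 3 only, 26 members had no overlap in place of 7 (41% of all genes in place of 9.55%). Between tissues, member calls fell from 6 to 2 with the DNGR-1 KO samples only (1336 of all genes in place of 2631), and ranged from 2 to 6 with 1 sample left out. The fit with the replicate block, in which same-numbered samples are paired, left 2 members (Tfec and Ctss) and 1246 genes called between tissues, and 0 members between genotypes in BM. Leaving out either DNGR-1 KO spleen sample gave 9 members at least 2-fold apart in place of 4. A single KO sample meets this rule more readily for any gene, and the share of all genes was not counted. With both KO samples the shares were 12.5% of the members and 26.9% of all genes. The median of the members between tissues was -0.05, and 0.01 with RLE size factors, so its sign depends on the scaling. No called member changed direction. Depth was not limiting for most members, but Ctsk and Rab34 were too low to test.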
